A study of Saccharomyces cerevisiae with 12 samples.

Results

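Ribosome assembly genes were examined in nucleotide-resolution maps of topoisomerase 2 (Top2) linked DNA breaks in budding yeast. They were taken as every gene of the R64 annotation whose symbol is UTP, NOP or RRP followed directly by a number. This gave 51 genes (18 UTP, 17 NOP and 16 RRP) of 5834 protein-coding genes, with chromosome III left out because the authors' build holds added sequence there. RRP7 and RRP43, which lie on chromosome III, were therefore not analysed. CC-seq enriches DNA ends with a protein still attached, and each such end is recorded as a hit at its first 5′ base, with its strand. Vegetative cells of the BY4741 background were incubated for 4 h with 1 mM VP16 (etoposide), a drug that traps Top2 on the DNA it has cut, or without it (untreated, which the study's methods give as DMSO alone). All 3 strains carried the pdr1DBD-CYC8 construct at PDR1, which lowers drug export, and were pdr1 with no further change, pdr1sae2, which also lacked SAE2, and pdr1mre11, which also lacked MRE11. Both treatments of every strain were sampled as 2 biological replicates, which makes 12 libraries, and the labels do not say whether replicates were grown or processed together.

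Ribosome assembly factors act in the nucleolus, where the ribosomal RNA precursor is transcribed, folded, modified and cut. The UtpA, UtpB and UtpC complexes bind the precursor and build the small subunit processome, snoRNP proteins carry out modification with guide RNAs, large subunit factors act on the rest of the precursor, and the exosome trims and degrades RNA from its 3′ end. In yeast the genes for these factors are known to be transcribed together when cells grow, and many of their promoters hold the PAC and RRPE motifs. Top2 cuts both strands with a stagger, so that a double-strand break leaves a Watson hit with a Crick hit 3 bp further on, and the 4 bases between form the overhang.

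The libraries held 751850 to 3646842 hits, and the windows of the assembly genes took 1.10% to 1.24% of nuclear hits with VP16 and 1.17% to 1.31% without. In those windows a cytosine preceded the cut at 44.4% to 63.5% of hits in the 6 VP16 libraries, against 19.9% to 21.3% in the 6 untreated libraries. The reading frame of MRE11 had a relative density of 0.0271 to 0.0804 in the 4 pdr1mre11 libraries and 0.848 to 1.02 in the 8 others. That of SAE2 had 0.284 to 0.931 in the 4 pdr1sae2 libraries and 0.792 to 1.18 in the 8 others, ranges that overlap. Over 500 bases within that frame, chosen after its hits were seen, the 4 pdr1sae2 libraries had 1 to 6 hits and the 8 others 20 to 164, while hits remained in the rest of the frame. Relative density here is hits per unmasked base divided by the mean of the same library, so 1 is the genome mean. Windows were the reading frame and the 500 bp upstream of the start codon and downstream of the stop codon, and they held 8 to 1558 hits per library. For 36 of the assembly genes the upstream neighbour lay closer than 500 bp, so that upstream windows often reached into another gene. Downstream windows often did so as well.

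With VP16 the median hit density of assembly genes lay above the genome mean upstream of the start codon and below it in the reading frame. The median relative density of the 51 upstream windows ran from 1.31 to 1.70 in the 6 VP16 libraries, against 0.992 to 1.17 in the 6 untreated libraries. Over all genes the same medians were 1.39 to 1.68 with VP16 and 1.04 to 1.13 without. Assembly genes and all genes thus covered nearly the same range upstream. In reading frames the assembly genes had medians of 0.595 to 0.789 with VP16 and 0.849 to 0.988 without, while all genes had 0.761 to 0.873 with VP16 and 0.931 to 0.976 without. With VP16 both ranges overlapped, while in each of the 6 VP16 libraries the median over assembly genes was the lower one. Downstream windows had medians of 0.922 to 1.18 with VP16 and 0.929 to 1.08 without in the assembly genes, and of 1.13 to 1.28 with VP16 and 0.974 to 1.08 without over all genes. These are descriptions of the genes, and no test was made of the assembly genes against the rest.

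**Figure D1:**
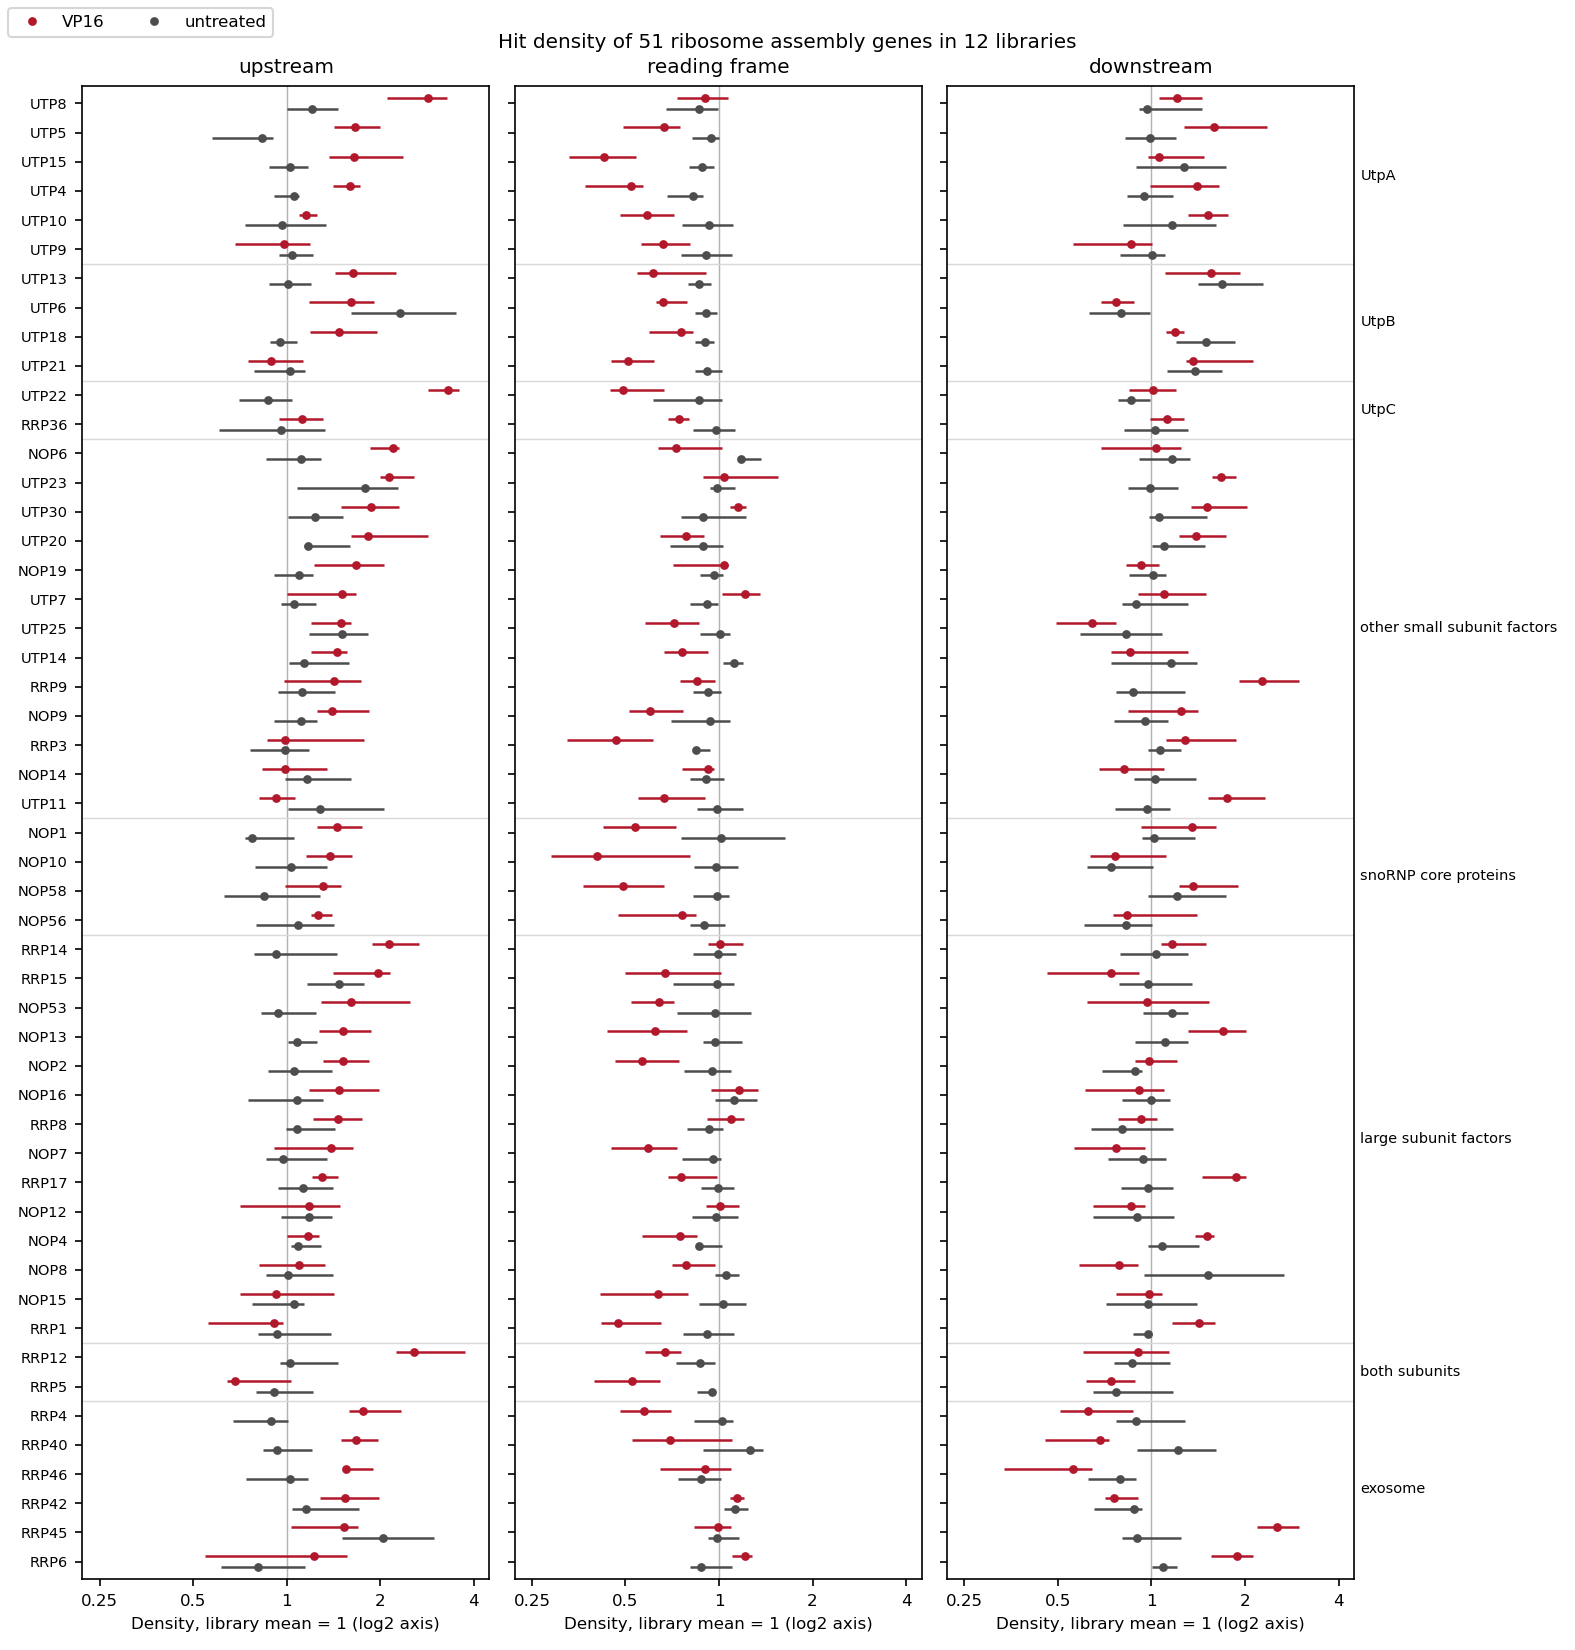
Relative hit density (library mean = 1, log2 axis) of the 51 assembly genes in 3 windows, with genes in rows grouped by role. Points are medians and lines run from the lowest to the highest of 6 libraries, VP16 in red above untreated in grey. The red points lie right of the grey ones for UTP22, UTP8 and RRP12 upstream, and left of them for most reading frames.

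The profile in steps of 50 bp showed where these hits lay. From 150 to 100 bp before the start codon the assembly genes averaged 2.48 with VP16 (range over libraries 2.04 to 3.01) and 1.23 without (1.06 to 1.37). All genes had 2.43 with VP16 and 1.22 without in the same step, so the peak was of like height. In the first 50 bp of the reading frame the assembly genes averaged 0.725 with VP16 (0.562 to 0.948) and 0.921 without (0.809 to 1.05). All genes had 1.07 with VP16 (0.969 to 1.15) and 1.04 without there, and the ranges of both gene sets with VP16 did not overlap. Those ranges run over libraries that read the same genes, so they hold no spread between genes. With VP16 the assembly genes were also lower in the last 50 bp before the start codon (0.840 against 1.15). They were level from 100 to 150 bp into the frame (both 1.11) and higher from 250 to 300 bp (1.16 against 0.997). From 150 to 200 bp after the stop codon the assembly genes averaged 1.32 with VP16 (1.18 to 1.50), and all genes 1.62 (1.45 to 1.81).

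**Figure D2:**
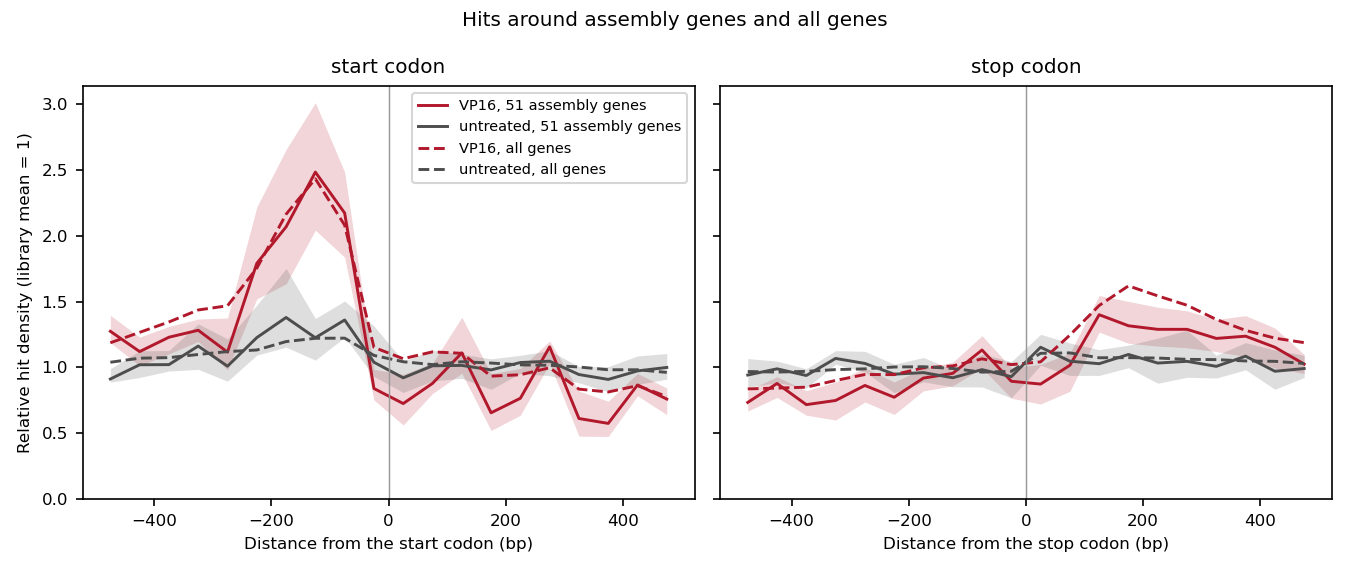
Mean relative hit density in steps of 50 bp around the start codon (left) and the stop codon (right), with distance in bp on the x axis. Solid lines are the 51 assembly genes with the range over 6 libraries shaded, dashed lines all genes, red VP16 and grey untreated. Both red lines peak near 2.4 to 2.5 before the start codon, and the solid one falls lower just after it (0.725 against 1.07). From 250 to 300 bp into the frame the solid red line is the higher one (1.16 against 0.997).

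To ask which windows changed with VP16, hits were fitted with edgeR's quasi-likelihood test with strain as a term, and p-values were adjusted by Benjamini-Hochberg over all windows of all genes. Upstream, 23 of the 51 assembly genes rose and 6 fell, with a median change of 0.26 on the log2 scale. Over all genes 54.0% of upstream windows rose and 12% fell, with a median of 0.33, so the 45.1% and 11.8% of assembly genes lay near or below the background. In reading frames 2 rose and 37 fell (72.5%), with a median of -0.58, where 9.83% of all reading frames rose and 61.3% fell, with a median of -0.39. Downstream, 11 rose and 12 fell, with a median of 0.01, against 37.5% rising and 24.4% falling over all genes and a median of 0.10. In 45 of the 51 (88.2%) the upstream change lay above that of the gene's own reading frame, as it did in 85.8% of all genes, and 16 (31.4%) had a rise upstream together with a fall in the frame, as did 31.2% of all genes.

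These changes are relative to the rest of each library, and another scaling moved them. With library sizes from the human DNA spike-in, all 51 upstream windows rose, 47 reading frames rose and none fell, and 49 downstream windows rose and none fell. That scaling put the median of all genes at 1.91 upstream, 1.19 in reading frames and 1.67 downstream, beside 1.84, 0.99 and 1.60 for the assembly genes. The authors list 1 spike-in factor for both replicates of a group, so those calls hold no error of the calibration. With total nuclear hits as library sizes 31 upstream windows rose and 3 fell, 4 reading frames rose and 35 fell, and 17 downstream windows rose and 8 fell. A separate fit for each window kind, which sets the median of all windows of a kind near 0, called 12 upstream windows higher and 13 lower, 13 reading frames higher and 22 lower, and 9 downstream windows higher and 21 lower. The shares of all genes called under these scalings are not given here, so these counts do not set assembly genes apart.

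**Figure D3:**
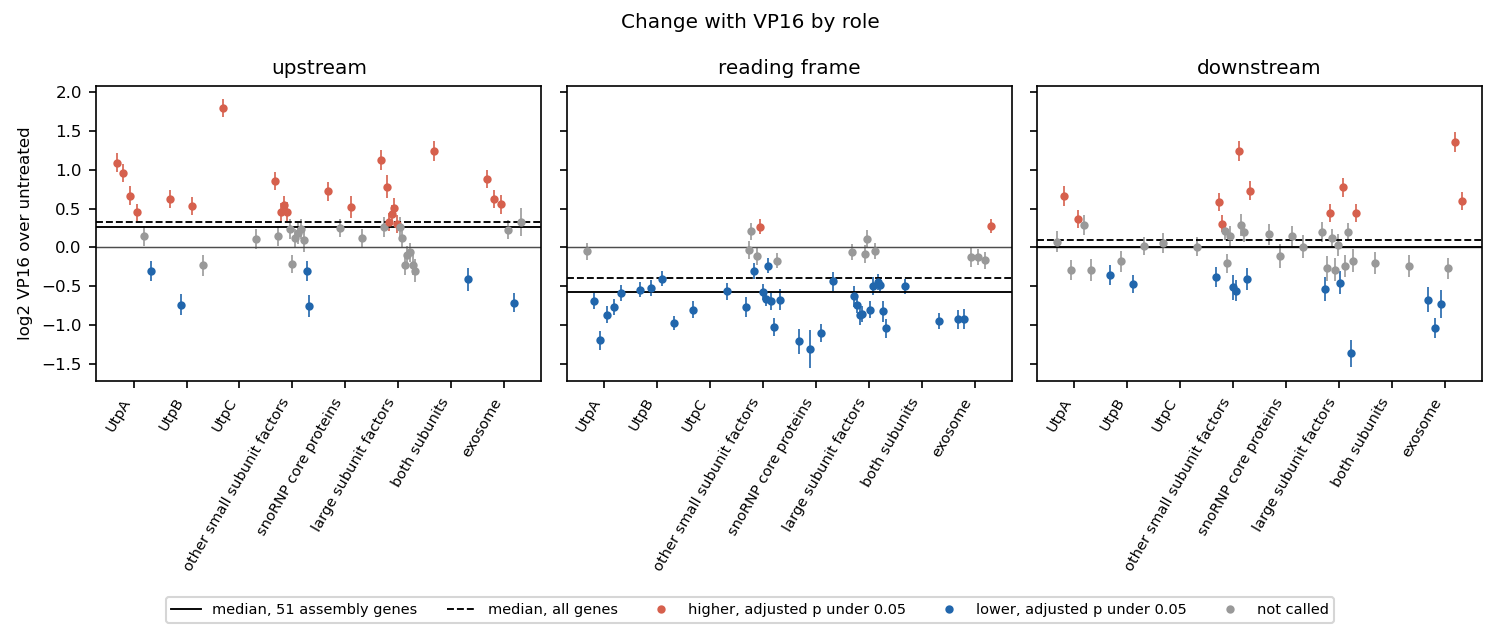
Change with VP16 (log2 VP16 over untreated, y axis) of each assembly gene in 3 windows, grouped by role on the x axis, with bars of 1 standard error. Colours mark windows called higher or lower at an adjusted p under 0.05, the solid line is the median of the 51 genes and the dashed line that of all genes. Reading frames lie mostly below 0, with medians of -0.58 for the assembly genes and -0.39 for all genes.

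Counts by role follow, and each rests on few genes. Over all genes 54.0% of upstream windows rose and 61.3% of reading frames fell, and no role was tested against these shares. Among the complexes that bind the precursor first, UtpA had 4 of 6 upstream windows rising and 1 falling (UTP9). UtpA also had 5 of 6 reading frames falling. Its highest upstream density belonged to UTP8 (YGR128C, chrVII:747950-750091, minus strand). UTP8 had 2.11, 2.86 and 3.29 upstream with VP16 (lowest, median and highest of 6) and 1.01, 1.21 and 1.47 untreated. All VP16 libraries lay above all untreated ones, and the rise was 1.09 ± 0.12 on the log2 scale (SE, adjusted p = 1.14e-08). UTP5 had 1.42, 1.66 and 2.01 with VP16 and 0.574, 0.831 and 0.907 untreated, again without overlap, and rose by 0.95 ± 0.11 (adjusted p = 2.23e-08). UTP15 (YMR093W, chrXIII:454015-455556) had 1.38, 1.65 and 2.37 upstream with VP16 and 0.875, 1.02 and 1.17 untreated. Its reading frame stood at the other end, with 0.329, 0.428 and 0.542 with VP16 and 0.80, 0.884 and 0.967 untreated, and fell by 1.19 ± 0.12 on the log2 scale (adjusted p = 1.84e-09).

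UtpB, which joins after UtpA, had 2 of 4 upstream windows rising (UTP13 and UTP18), 1 falling (UTP6), and all 4 reading frames falling. UTP13 had 1.43, 1.64 and 2.26 upstream with VP16 and 0.876, 1.01 and 1.2 untreated, and UTP18 had 1.19, 1.48 and 1.96 with VP16 and 0.884, 0.955 and 1.08 untreated. UTP6 (YDR449C, chrIV:1357580-1358902, minus strand) had 1.18, 1.62 and 1.91 with VP16 and 1.61, 2.32 and 3.52 untreated. Its upstream window was thus above the genome mean in all 12 libraries and highest without the drug, and it fell by 0.73 ± 0.13 on the log2 scale (adjusted p = 1.74e-05). When each position was counted once per library the value was 0.16 (adjusted p = 0.209).

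In UtpC, UTP22 (YGR090W, chrVII:662358-666071) had the largest upstream rise of the 51 genes. It had 2.86, 3.30 and 3.58 upstream with VP16 and 0.705, 0.871 and 1.05 untreated, a rise of 1.79 ± 0.12 (adjusted p = 8.94e-13). Most of it lay far from the start codon: with windows of 200 bp the change was 0.11 (adjusted p = 0.717). RRP36, a partner of Utp22, had 0.945, 1.12 and 1.31 upstream with VP16 and 0.607, 0.963 and 1.33 untreated, and did not pass the test.

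The other small subunit factors were mixed, with 4 of 13 upstream windows rising and 2 falling, and 1 reading frame rising and 8 falling. NOP6 had 1.85, 2.20 and 2.31 upstream with VP16 and 0.860, 1.11 and 1.29 untreated, without overlap. UTP30 had 1.49, 1.87 and 2.31 with VP16 and 1.01, 1.23 and 1.52 untreated. UTP23, which acts on the snR30 snoRNA in yeast, was high in both groups, with 2.00, 2.13 and 2.57 with VP16 and 1.08, 1.80 and 2.28 untreated. UTP11 (YKL099C, chrXI:255720-256472, minus strand) had 0.815, 0.927 and 1.06 with VP16 and 1.01, 1.28 and 2.05 untreated, and fell by 0.75 ± 0.14 on the log2 scale (adjusted p = 2.75e-05). With each position counted once its value was -0.18 (adjusted p = 0.173). NOP14 (YDL148C, chrIV:188154-190586, minus strand) had 0.835, 0.990 and 1.35 with VP16 and 0.992, 1.17 and 1.62 untreated. Its fall of -0.30 ± 0.13 (adjusted p = 0.0423) was lost in 8 of the 12 fits that left out 1 library, with either replicate number alone (-0.31 and -0.32), and in those with total hits (-0.17), 200 bp windows (-0.05), windows ending at the next gene (-0.13) and positions counted once (-0.23).

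Downstream, this group held 2 of the 4 largest rises. RRP9 (YPR137W, chrXVI:802359-804080), the U3 snoRNP protein that binds its guide RNA, had 1.92, 2.27 and 2.98 after the stop codon with VP16 and 0.769, 0.873 and 1.28 untreated. The groups did not overlap and the rise was 1.24 ± 0.13 (adjusted p = 3.44e-09), over 430 unmasked bases. UTP11, low upstream, had 1.53, 1.75 and 2.32 downstream with VP16 and 0.766, 0.968 and 1.15 untreated, and rose by 0.73 ± 0.12 (adjusted p = 6.07e-06).

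All 4 reading frames of snoRNP core proteins fell, with a group median of -1.15 on the log2 scale, beside -0.58 for the 51 genes and -0.39 for all genes. NOP56, the partner of Nop58, changed least of the 4 (-0.43), with a VP16 median of 0.762 and ranges that overlapped. NOP10 (YHR072W-A, chrVIII:241664-241840), an H/ACA snoRNP protein with a frame of 177 bp, had 0.289, 0.405 and 0.807 with VP16 and 0.833, 0.975 and 1.15 untreated. This rested on 8 to 20 hits per VP16 library and 10 to 53 per untreated library, and the change was -1.30 ± 0.24 (adjusted p = 3.57e-05). NOP1 (YDL014W, chrIV:427364-428347), the methyltransferase of C/D snoRNPs known as fibrillarin in humans, had 0.424, 0.535 and 0.726 in its frame with VP16 and 0.753, 1.02 and 1.64 untreated, a change of -1.20 ± 0.16 (adjusted p = 1.61e-07). NOP58 (YOR310C, chrXV:896825-898360, minus strand), a scaffold of the same particle, had 0.364, 0.492 and 0.664 with VP16 and 0.825, 0.987 and 1.08 untreated, and changed by -1.10 ± 0.12 (adjusted p = 8.54e-09). In all 3 genes every VP16 library lay below every untreated one. Upstream, NOP1 had 1.26, 1.46 and 1.75 with VP16 and 0.733, 0.772 and 1.06 untreated, and NOP10 and NOP58 had VP16 medians of 1.38 and 1.31.

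Large subunit factors had 6 of 14 upstream windows rising and none falling, and 10 reading frames falling. RRP14 (YKL082C, chrXI:281025-282329, minus strand), which lies head to head with the elongation factor gene TEF4, had 1.89, 2.14 and 2.67 upstream with VP16 and 0.786, 0.925 and 1.45 untreated. It rose by 1.12 ± 0.13 (adjusted p = 2.06e-08). NOP53, which brings the exosome to the large subunit precursor, had 1.29, 1.61 and 2.51 with VP16 and 0.830, 0.936 and 1.25 untreated. RRP15 had 1.42, 1.96 and 2.15 with VP16 and 1.17, 1.48 and 1.78 untreated and did not pass the test. Downstream, NOP8 (YOL144W, chrXV:53098-54552) had 0.583, 0.788 and 0.902 with VP16 and 0.944, 1.52 and 2.67 untreated. All its VP16 libraries lay below the untreated ones, and the change was -1.36 ± 0.17 (adjusted p = 8.00e-08). The next reading frame, that of RIB4, lies 42 bp after the NOP8 stop codon, so most of this window is in RIB4. RRP17 (YDR412W, chrIV:1294693-1295400), a 5′ to 3′ exonuclease, had 1.46, 1.88 and 2.02 downstream with VP16 and 0.80, 0.973 and 1.17 untreated, a rise of 0.77 ± 0.12 (adjusted p = 3.57e-06). That rise lay mostly inside the next reading frame, that of ERD1, whose stop codon is 197 bp away: in windows that stopped there the change was -0.23 (adjusted p = 0.382), and in 200 bp windows -0.22 (adjusted p = 0.408).

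Of the factors that act on both subunits, RRP12 (YPL012W, chrXVI:529723-533409) had 2.24, 2.58 and 3.74 upstream with VP16 and 0.955, 1.03 and 1.47 untreated. It rose by 1.24 ± 0.13 (adjusted p = 2.46e-09), without overlap. RRP5 went the other way, with 0.642, 0.683 and 1.03 with VP16 and 0.80, 0.915 and 1.21 untreated, and a change of -0.41 ± 0.15 (adjusted p = 0.0172).

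Of the exosome reading frames 2 of 6 fell and 1 (RRP6) rose. RRP6 and UTP7, a small subunit factor, were the 2 rises in the frame and are named after their values were seen. RRP6 had 1.10, 1.21 and 1.27 with VP16 and 0.807, 0.876 and 1.10 untreated, and UTP7 had 1.02, 1.21 and 1.35 with VP16 and 0.805, 0.913 and 0.990 untreated, with changes of 0.28 and 0.27 (adjusted p = 0.0120 and 0.0169). Upstream, 3 of 6 rose and 1 fell. RRP4 and RRP40, the RNA-binding cap proteins, had upstream medians of 1.77 and 1.68 with VP16 against 0.894 and 0.933 untreated, and RRP46 of the ring had 1.55 against 1.03. RRP45 (YDR280W, chrIV:1020747-1021664), also of the ring, had 1.03, 1.53 and 1.70 with VP16 and 1.51, 2.05 and 2.98 untreated, and fell by 0.71 ± 0.12 on the log2 scale (adjusted p = 1.09e-05). That fall turned to 0.32 (adjusted p = 0.0906) in 200 bp windows and was -0.20 (adjusted p = 0.0902) with positions counted once. The same gene had the largest downstream rise, with 2.19, 2.54 and 2.98 with VP16 and 0.804, 0.896 and 1.25 untreated, a change of 1.36 ± 0.13 (adjusted p = 5.80e-10).

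In the downstream windows of 3 other exosome genes hits were scarcer with VP16. The next reading frame lay 171 bp after RRP40, 170 bp after RRP46 and 282 bp after RRP4. These windows thus reach into a neighbour's frame, and 61.3% of all reading frames fell. In windows ending at the next gene, the falls of RRP40, RRP46 and RRP4 kept their sign and were still called. RRP40 (YOL142W, chrXV:55558-56280) had 0.453, 0.681 and 0.729 there with VP16 and 0.90, 1.22 and 1.62 untreated, without overlap, and changed by -1.03 ± 0.13 (adjusted p = 1.17e-07). RRP46 (YGR095C, chrVII:675671-676342, minus strand) had 0.334, 0.560 and 0.643 with VP16 and 0.63, 0.789 and 0.893 untreated, a change of -0.72 ± 0.18 (adjusted p = 7.89e-04). RRP4 (YHR069C, chrVIII:233579-234658, minus strand) had 0.507, 0.627 and 0.872 with VP16 and 0.768, 0.891 and 1.29 untreated, a change of -0.67 ± 0.16 (adjusted p = 5.50e-04), which was -0.49 (adjusted p = 0.0560) in 200 bp windows.

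Which single sites carried the VP16 signal was read from Watson positions paired with the Crick position 3 bp further on. Of the 5 strongest sites near assembly genes, in UTP8, UTP22, RRP45, RRP12 and NOP53, 4 are printed below as 40 bases of the Watson strand of the R64 reference, with the 4 bases of the overhang in capitals, because these sites make up a large share of their windows.
UTP22 upstream, chrVII:661850-661889: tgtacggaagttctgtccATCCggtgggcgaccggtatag
RRP45 downstream, chrIV:1021804-1021843: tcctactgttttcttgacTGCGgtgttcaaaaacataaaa
RRP12 upstream, chrXVI:529428-529467: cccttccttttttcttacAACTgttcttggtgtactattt
NOP53 upstream, chrXVI:277689-277728: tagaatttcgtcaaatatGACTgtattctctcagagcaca

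The UTP8 site, 118 bp before the start codon, had 22 and 148 hits in pdr1sae2, 121 and 191 in pdr1mre11 and 125 and 88 in pdr1 with VP16 (replicates 1 and 2). The 6 untreated libraries had 0 to 5 hits there. It held 43.4% of all VP16 hits of its window and 1.66% of the untreated ones. The UTP22 site lay 487 bp before the start codon, near the far end of the window, with 33 to 126 hits per VP16 library and 0 to 5 per untreated library, 27% and 2.44% of the window. RRP45 had its site 158 bp after the stop codon, with 19 to 122 hits against 0 to 3. RRP12 had 14 to 99 hits against 0 to 5 at 274 bp before the start codon, and NOP53 had 13 to 119 against 0 to 2 at 178 bp. At all 5 the lowest VP16 library exceeded the highest untreated one, in hits not scaled for library size. The sites were picked for their VP16 hits in these same libraries. Higher counts with VP16 are thus in part given by that choice and are no test. Each of the printed 40-base stretches occurs once in the reference, and hits fell on both strands, with 262 Watson and 433 Crick hits at the UTP8 site in the VP16 libraries. With each position counted once per library the upstream rises were smaller, at 0.66 for UTP22, 0.60 for RRP12, 0.51 for RRP14 and 0.44 for UTP8, and so were the downstream rises of RRP45 (0.73), RRP17 (0.27) and UTP11 (0.43). Falls shrank as well, to -0.33 for NOP8, -0.64 for RRP40 and -0.38 for RRP46 downstream, and to -0.48 for NOP1, -0.66 for NOP10 and -0.75 for UTP15 in the frame. Windows of 200 bp gave larger changes for UTP8 upstream (2.03) and NOP8 downstream (-2.61), and smaller ones for RRP12 (0.81) and RRP14 (0.66) upstream.

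Sites of this kind were common but not particular to assembly genes. The strongest site of each of the 51 genes lay upstream in 26, in the reading frame in 14 and downstream in 11, with a median of 12 hits per 1000000 nuclear hits (4.21 to 52.7). At 50 of the 51 a cytosine preceded the cut on at least 1 strand, and at 15 on both. Neither the count by window nor that of cytosines is given for all genes, and the windows differ in length. These sites were chosen for their VP16 hits, of which 44.4% to 63.5% in these windows follow a cytosine. The strongest site of an upstream window had a median of 9.06 hits per 1000000 nuclear hits over assembly genes and 8.48 over all genes, and 74 upstream windows of the 5834 genes had a stronger site than that of UTP8.

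Untreated libraries had strong sites of their own near assembly genes, and these were chosen for description after their values were seen. They are shown in the same way, with the 4 bases between the paired hits in capitals. The UTP6 and RRP45 upstream windows and those downstream of NOP8 and UTP13 fell with VP16, and the upstream window of UTP23 did not pass the test.
UTP6 upstream, chrIV:1359067-1359106: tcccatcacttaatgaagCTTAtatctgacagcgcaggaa
RRP45 upstream, chrIV:1020403-1020442: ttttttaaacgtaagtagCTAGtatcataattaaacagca
NOP8 downstream, chrXV:54540-54579: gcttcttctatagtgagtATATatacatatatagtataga
UTP23 upstream, chrXV:333446-333485: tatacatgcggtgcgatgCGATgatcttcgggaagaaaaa
UTP13 downstream, chrXII:579131-579170: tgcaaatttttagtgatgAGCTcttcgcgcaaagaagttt

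At the UTP6 site, 183 bp before the start codon, VP16 libraries had 1 to 14 hits, while untreated libraries had 154 and 21 in pdr1sae2, 305 and 73 in pdr1mre11 and 82 and 26 in pdr1. It held 4.89% of the VP16 hits of its window and 52.1% of the untreated hits. The RRP45 site, 323 bp before the start codon, had 3 to 14 hits with VP16 and 10 to 282 untreated, 5.55% and 49.6% of the window. The NOP8 site, 6 bp after the stop codon, had 1 to 9 hits with VP16 and 8 to 250 untreated, 8.17% and 51% of the window. A similar site inside the NOP1 reading frame had 31 hits over all VP16 libraries and 379 over all untreated ones, 5.23% and 30.8% of the frame. Per nuclear hit, untreated replicate 1 was above replicate 2 in all 3 strains at the RRP45, NOP8 and NOP1 sites, and at the UTP6 site in pdr1sae2 and pdr1mre11 but not in pdr1. With the 6 replicate 2 libraries alone, an alternative chosen after seeing the data, the changes were -0.62 for UTP6 and -0.47 for RRP45 upstream, -0.89 for NOP8 downstream and -0.58 for the NOP1 frame, all past the threshold, where replicate 1 alone gave -0.80, -0.92, -1.53 and -1.66. The fall of UTP11 upstream was -0.28 (adjusted p = 0.210) in replicate 2 alone and -1.02 in replicate 1 alone. None of the UTP6, RRP45 and NOP8 sites had a cytosine before the cut on either strand. The UTP23 site was used in both groups, at 20.9 hits per 1000000 nuclear hits with VP16 and 29.2 untreated, but on different strands: VP16 libraries had 58 Watson and 202 Crick hits there, and untreated libraries 302 Watson and 79 Crick hits.

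**Figure D4:**
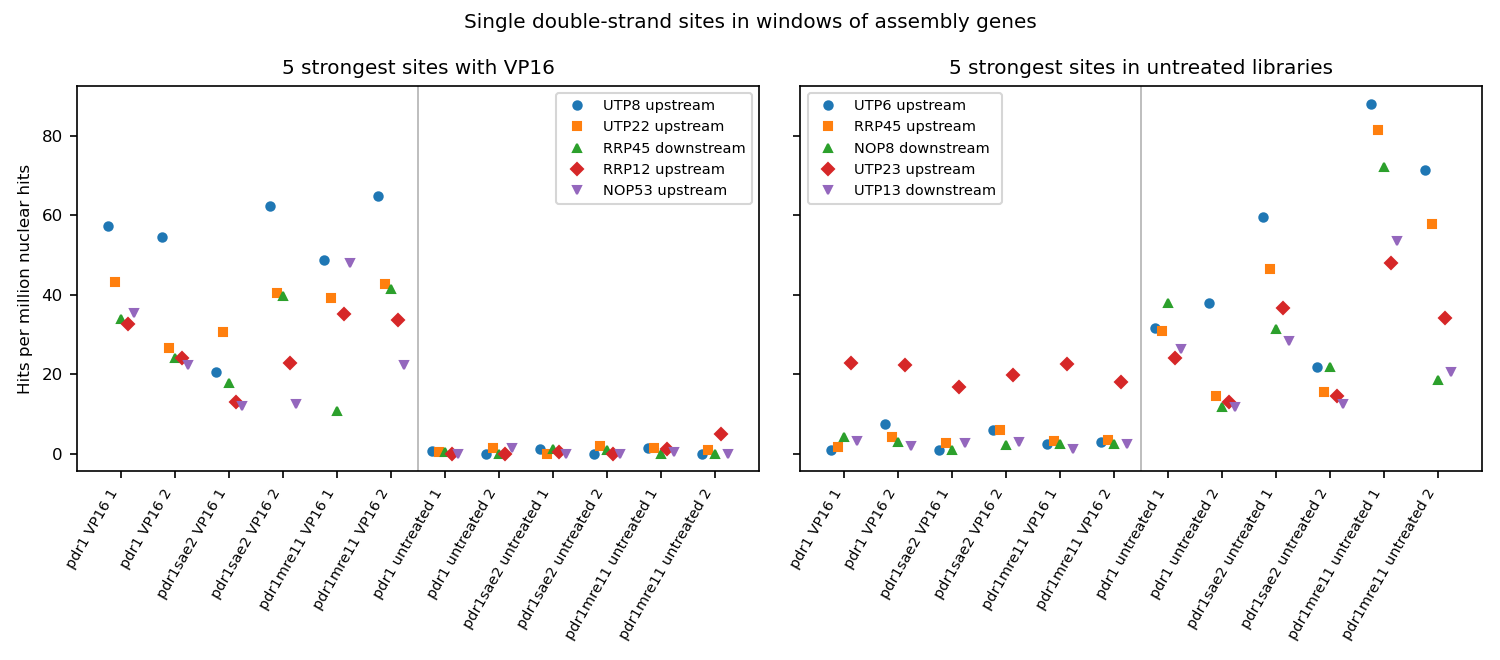
Hits at a site per 1000000 nuclear hits (y axis) in each of the 12 libraries (x axis, VP16 left of the grey line, untreated right of it) at the 5 strongest sites with VP16 (left panel) and the 5 strongest in untreated libraries (right panel) near assembly genes. The sites of the left panel are near 0 without the drug. Of those on the right, 4 are low with VP16 and the UTP23 site is present in both groups.

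Promoters were searched for the motifs known for this gene class, in 300 bases from 250 before the start codon to 50 bases into the frame, on both strands. The PAC core, searched as GATGAG, was in 43 of 51 promoters of assembly genes (84.3%) and in 1187 of 5833 promoters of all genes (20.3%). The RRPE core, searched as AAAAATTTT, was in 25 (49.0%) and 400 (6.86%), and both together in 22 (43.1%) and 207 (3.55%). These matches are a description of letters and not of bound sites. The strongest VP16 site upstream of RRP12, 274 bp before the start codon with 23.1% of the window's VP16 hits, lies outside this stretch. Promoters of 2 genes are shown 5′ to 3′ along the gene, with every match to either motif in capitals: RRP12 for its rise with VP16, and NOP7, a large subunit factor, for having the most matches.
RRP12 promoter, chrXVI:529473-529772, plus strand: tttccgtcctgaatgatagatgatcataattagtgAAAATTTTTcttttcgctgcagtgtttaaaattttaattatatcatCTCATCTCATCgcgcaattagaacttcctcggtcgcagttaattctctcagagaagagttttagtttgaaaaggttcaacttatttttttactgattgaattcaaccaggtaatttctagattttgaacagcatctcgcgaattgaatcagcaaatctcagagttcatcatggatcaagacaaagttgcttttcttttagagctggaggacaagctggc
NOP7 promoter, chrVII:695167-695466, plus strand: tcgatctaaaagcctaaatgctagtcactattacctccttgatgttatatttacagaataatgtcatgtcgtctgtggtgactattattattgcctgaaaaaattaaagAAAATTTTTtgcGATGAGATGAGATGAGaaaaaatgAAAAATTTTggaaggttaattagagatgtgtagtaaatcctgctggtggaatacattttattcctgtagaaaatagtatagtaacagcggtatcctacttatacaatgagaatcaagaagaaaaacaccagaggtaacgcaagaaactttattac

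Hits were then counted at the motifs themselves. Across the 64 PAC matches of assembly genes, the motif with 5 bp on either side had a relative density of 2.78, 3.57 and 4.30 with VP16 (lowest, median and highest of 6) and 1.37, 1.76 and 2.67 untreated. The next 50 bp on either side had 1.50, 1.82 and 2.10 with VP16 and 1.07, 1.11 and 1.28 untreated, so with VP16 the motif lay above its surroundings in level. Over the 1209 PAC matches of all genes the same zone had a median of 2.74 with VP16 and 1.49 untreated. At the 32 RRPE matches of assembly genes the density was 0.199, 0.330 and 0.60 with VP16 and 0.610, 0.707 and 1.19 untreated, while the next 50 bp had medians of 2.11 with VP16 and 1.34 untreated. The RRPE core thus had few hits between flanks that had many, in assembly genes as in all genes, where its medians were 0.317 with VP16 and 0.774 untreated. Its letters hold no cytosine or guanine, and whether this bears on the hits was not tested.

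By position, the first base of the PAC core was the most frequent 5′ end on the strand that reads GATGAG. Relative to the mean of a strand, it had 12.8, 17.8 and 30.9 with VP16 and 0.748, 1.26 and 3.13 untreated. Its partner 3 bp on, position 4 on the other strand, had 6.70, 12.4 and 17 with VP16 and 0.374, 2.56 and 4.69 untreated. This pair places the overhang on the first 4 letters of the motif. The 770 VP16 hits at the first base came from 34 of the 43 promoters with a match, UTP13 giving the most (117, 15.2%). Of these hits, 694 were at the 32 matches with a cytosine before the motif, which made up 50.0% of the matches in assembly genes and 29.3% in all genes. Over all genes 5361 of the 6092 VP16 hits at the first base were at matches with a cytosine before the motif. Untreated libraries had another pair, with 3.69, 7.47 and 14.6 at position 5 on the motif strand and 4.11, 5.47 and 11.5 at position 8 on the other, where the VP16 libraries had medians of 4.66 and 11.3. Since 17 of the 64 matches overlap another, some hits were counted at more than 1 position.

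**Figure D5:**
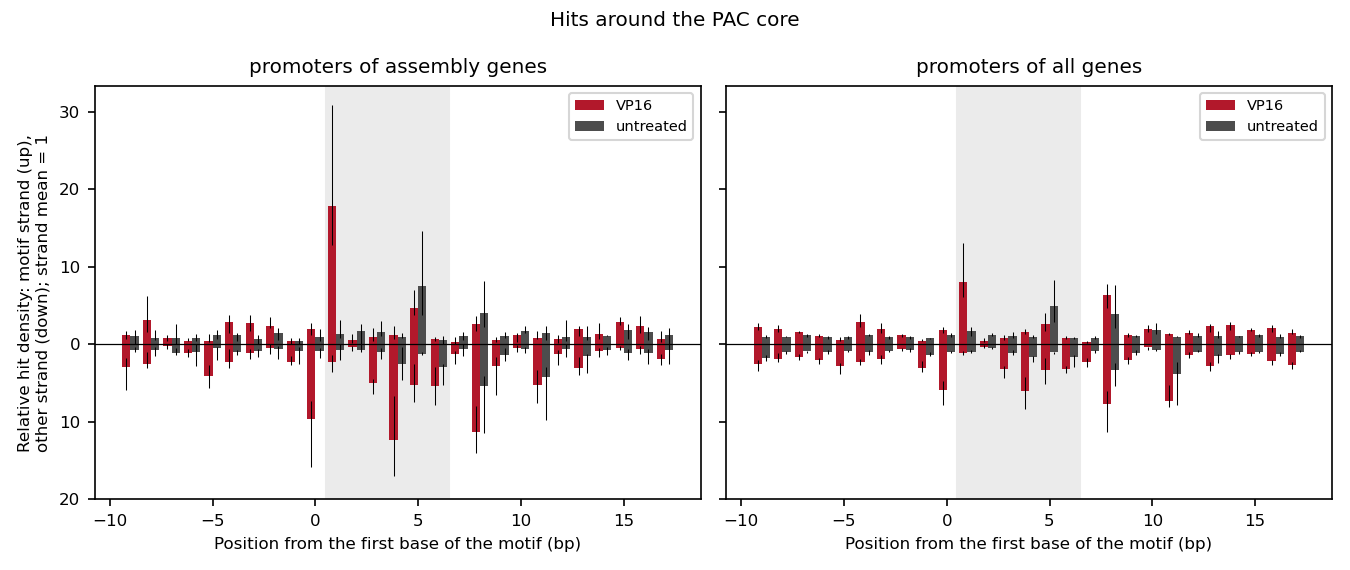
Relative hit density (strand mean = 1) by position around the PAC core in promoters of assembly genes (64 matches, left) and of all genes (1209, right), with the motif shaded. Bars up are the motif strand and bars down the other strand, each the median of 6 libraries with lines from lowest to highest, VP16 in red left of untreated in grey. With VP16 the first base of the motif reaches 17.8 in assembly genes and 8.01 in all genes.

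The change of the whole upstream window was also set beside the motifs. Of the 43 genes with a PAC core 18 rose and 5 fell, with a median change of 0.24 on the log2 scale, and of the 8 without it 5 rose and 1 fell, with a median of 0.50. The 25 genes with an RRPE core had a median change of 0.26 and the 26 without it 0.26. No split by motif is given for all genes, and genes with and without a motif were not tested against each other. By gene order, 13 of 24 divergent upstream windows rose (median 0.44), and 10 of 27 tandem ones (median 0.23), where 54.8% of divergent and 53.2% of tandem windows of all genes rose. Downstream, 4 of 28 convergent windows rose and 8 fell (median -0.19), and 7 of 23 tandem windows rose and 4 fell (median 0.15). Over all genes 26.0% of convergent downstream windows rose and 32.9% fell, and 49.9% of tandem ones rose and 15.1% fell.

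Strains were compared for the 153 windows of assembly genes. None differed in pdr1sae2 against pdr1 with VP16, none in pdr1mre11 against pdr1 with VP16, and none had a VP16 response that differed between either mutant and pdr1 (edgeR, adjusted p under 0.05; DESeq2 also gave 0). At an unadjusted p under 0.05 edgeR gave 3, 9, 0 and 5 of the 153 windows in these 4 comparisons in turn, which is 1.96%, 5.88%, 0% and 3.27%, where all windows had 2.07%, 7.21%, 1.09% and 3.24%. Over the 17196 windows of all genes 0.00%, 0.00582%, 0.00% and 0.00% were called, the 1 called window being the reading frame of MRE11, so no difference between strains was detectable in the windows of assembly genes with this design. With spike-in sizes 138 windows were higher in pdr1sae2 and 153 in pdr1mre11 against pdr1, and 150 had a larger response in pdr1mre11 and 0 in pdr1sae2, again without any error of the calibration. The same scaling called 86.8%, 99.9% and 98.4% of all windows in these 3 comparisons. The median upstream change with VP16 was 0.29 for pdr1sae2, 0.22 for pdr1mre11 and 0.40 for pdr1. In reading frames it was -0.48 for pdr1sae2, -0.61 for pdr1mre11 and -0.67 for pdr1.

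The window nearest to a call was upstream of RRP6 (YOR001W, chrXV:326832-329033), the nuclear exonuclease of the exosome. It had 1.00 and 0.547 in pdr1mre11, 1.31 and 1.15 in pdr1sae2 and 1.57 and 1.47 in pdr1 with VP16. The change in pdr1mre11 against pdr1 was -1.0 (adjusted p = 0.469), with both pdr1mre11 libraries below both pdr1 ones. This window holds the centromere of chromosome XV (chrXV:326584-326702, 119 bp), which ends 130 bp before the start codon and had 1 to 16 hits per VP16 library and 6 to 20 per untreated library. The rest of the window had 1.30 and 0.708 in pdr1mre11 and 2.03 and 1.76 in pdr1 with VP16, so pdr1mre11 was lower outside the centromere. Within the centromere the hits with VP16 were few, 1 and 1 in pdr1mre11 and 2 and 9 in pdr1.

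Other assembly factors, a list of 107 genes of the same pathway without these names, of which 99 were matched, were counted in the same way. Upstream, 48 of 99 rose (48.5%, against 54.0% of all genes) and 10 fell (median 0.24). In reading frames 4 rose and 69 fell (69.7%, against 61.3% of all genes), with a median of -0.54. The largest upstream changes among them were LRP1, a cofactor of the exosome, which had 2.90, 3.41 and 4.03 with VP16 and 0.775, 1.07 and 1.25 untreated, a rise of 1.54 ± 0.12 (adjusted p = 2.20e-11), and NAN1 of UtpA, which rose by 1.37 ± 0.12 (adjusted p = 1.74e-10). MAK11 and ENP2 fell by 0.94 ± 0.15 and 0.85 ± 0.14 on the log2 scale (adjusted p = 5.25e-06 and 4.59e-06). All 7 RNA polymerase I subunit genes, whose enzyme makes the precursor, had reading frames that fell (median -0.94), and 3 rose upstream; no test was made of these lists against all genes.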

How the data were processed

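Per the labels and the study's methods, 12 CC-seq libraries were aligned by the authors with Bowtie2 to Cer3H4L2, the Cer3 build with sequence added at HIS4 and LEU2, and deposited as counts of hits per nucleotide and strand with no normalization. No minimum mapping quality was set for yeast, repeats, telomeres and the rDNA were masked by the authors, and the methods describe no molecular identifiers, so repeated hits need not be separate molecules. The authors also deposited 1 spike-in ratio per group as a scaling factor. Pooled maps were not used. Positions were matched to the R64 annotation and sequence, and no hit lay beyond a reference chromosome end outside III.

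Runs of at least 100 bases without a hit in any library were treated as masked, and windows needed 50 unmasked bases. All 51 assembly genes passed the filter in every window (5773 upstream, 5697 reading frame and 5726 downstream windows of all genes). NOP1, UTP7, UTP30 and RRP15 hold 40-base stretches found elsewhere in the genome, where hits are uncertain. Counts of all windows were fitted in 1 table with edgeR 4.0.16 (R 4.3.3), with TMM factors, the filterByExpr filter, glmQLFit and glmQLFTest, and Benjamini-Hochberg adjustment. The VP16 effect used strain and treatment as terms, and strain differences came from contrasts in a fit with 1 mean per group. The fit was tested on simulated data. P-values of the strain contrasts rest on the spread between replicates of a group, with information shared over windows. Those of the VP16 effect also take in differences between strains in their response to VP16. The main fit treats same-numbered libraries as independent. Alternatives were DESeq2 1.42.0, other library sizes, filters, window definitions, positions counted once, a replicate term, each library left out, and, chosen after seeing the data, each replicate number alone. Named genes were the 4 largest rises and falls per window with the same sign in all 6 same-numbered pairs, the 5 strongest sites, and up to 3 of the densest upstream windows per role. The assembly genes, the role lists and the motifs were chosen with earlier results of these data known. The look at hits around motifs and at untreated sites was added after values were seen. Promoters were read from the R64 genome of RefSeq. The sequence upstream of UTP8 is not reported here.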

Additional observations from a re-analysis of the deposited data

Results flagged for a closer look

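In 46 groups of 6 libraries taken from the named windows and the medians over the assembly genes, 4 had 1 library that stood apart from the other 5, where chance gives about 1 in 20 groups. Upstream of RRP12, untreated pdr1mre11 replicate 2 had a relative density of 1.47, and the next library 1.10. Upstream of RRP14, untreated pdr1 replicate 2 had 1.45, and the next 0.981. Upstream of NOP14, the same library had 1.62, and the next 1.2. The median over downstream windows of assembly genes was 0.922 in pdr1mre11 with VP16, replicate 2, and 1.10 in the next library.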

How the results depend on the processing

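Among the counts of upstream rises, frame falls, downstream rises and strain differences, those that moved by over 1.5 times were as follows. With spike-in library sizes 51 upstream windows, 0 reading frames and 49 downstream windows stood in the main direction, and 138, 153 and 150 windows differed in pdr1sae2, pdr1mre11 and the response of pdr1mre11. Separate fits gave 12 upstream windows higher and 22 reading frames lower, and total hits gave 17 downstream windows higher. Replicate 2 libraries alone gave 14 upstream windows higher, and replicate 1 alone 30. Counts in the other direction moved too: upstream falls from 6 were 3 with total hits and 13 with separate fits, frame rises from 2 were 4 and 13, and downstream falls from 12 were 8 and 21. The median VP16 density of assembly genes moved to 1.63 upstream and 0.970 downstream in 200 bp windows, to 1.56 upstream in windows ending at the next gene, and to 0.840 in reading frames with positions counted once. With 1 library left out the counts ran from 21 to 28 upstream, 36 to 37 in reading frames and 10 to 13 downstream, and stayed at 0 for the strain comparisons. Spike-in sizes reversed the falls of UTP11 (0.90), UTP6 (0.87), RRP45 (0.89) and NOP14 (1.26) upstream, NOP10 (0.28), NOP1 (0.43), UTP15 (0.39) and NOP58 (0.49) in the frame, and NOP8 (0.33), RRP40 (0.51), RRP46 (0.85) and RRP4 (0.90) downstream. Other reversals were UTP6 upstream with positions counted once (0.16), RRP45 upstream in 200 bp windows (0.32), and RRP17 downstream in 200 bp windows (-0.22) and in windows ending at the next gene (-0.23). The cause was not tested, beyond the site values given for UTP6 and RRP45.

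Deviations of same-numbered libraries correlated at 0.37 to 0.45 among the untreated groups, at 0.09 to 0.27 among the VP16 groups, and at 0.07, 0.09 and -0.20 between VP16 and untreated libraries of a strain, so replicate numbers go with a shared shift in untreated libraries but do not pair VP16 with untreated ones. With the replicate block 23 upstream windows rose, 37 reading frames fell and 12 downstream windows rose, and no strain comparison gained a call. NOP8 downstream could not be fitted in windows ending at the next gene, which leave 42 bp. Few hits limit precision in short frames, as in NOP10.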
